A study of Mus musculus with 16 samples.

Results

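Expression of 10 genes of arginine and polyamine metabolism was compared between Tim-4+ and Tim-4- tumor-associated macrophages (TAMs) of the mouse peritoneal cavity. The genes were *Slc7a1* and *Slc7a2* for arginine uptake, *Arg1* and *Nos2* for arginine use, *Ass1* and *Asl* for arginine resynthesis, *Odc1* and *Sms* for polyamine synthesis, and *Sat1* and *Smox* for polyamine breakdown. They were chosen by name, with earlier results of these data known. All 10 were found among the 55604 genes of the count tables. Female C57BL/6 mice, 6 to 8 weeks old at the start, carried tumors of ID8, a mouse ovarian surface epithelial cancer line injected into the peritoneal cavity (in its luciferase-bearing form by the study's methods), and TAMs were taken 6 to 7 weeks after inoculation. Both groups therefore came from tumor-bearing mice, and no macrophages of tumor-free mice entered the comparison. Tim-4+ TAMs were collected with beads against Tim-4, an adhesion receptor for phosphatidylserine carried by long-lived resident macrophages. Tim-4- TAMs were collected from the cells left over, with beads against the macrophage antigen F4/80, so the subsets were not enriched with the same antibody. Pairs 793, 784, 783 and 779 each gave 1 library of either subset, which makes 8 libraries, each sequenced in 2 lanes.

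Arginine stands at a branch point in macrophages. Cationic amino acid transporters carry it into the cell, arginase splits it into ornithine and urea, and nitric oxide synthase turns it into nitric oxide and citrulline. Argininosuccinate synthase and argininosuccinate lyase rebuild arginine from citrulline. Ornithine feeds ornithine decarboxylase, whose product putrescine is extended to spermidine and spermine, and an acetyltransferase and an oxidase take these polyamines apart again. High arginase is a textbook feature of alternatively activated and tumor-associated macrophages, and high inducible nitric oxide synthase is one of classically activated macrophages.

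Gene counts came to 53527928 to 57768202 per Tim-4+ library and 55618306 to 69594245 per Tim-4- library. Levels are given as CPM, counts relative to the library total after scaling by trimmed mean of M values (TMM), in the order of pairs 793, 784, 783 and 779. The gene of the sorted protein, *Timd4*, had 524 to 1744 CPM in Tim-4+ TAMs and 1.97 to 85.0 CPM in Tim-4- TAMs, and its highest level among the Tim-4- libraries was in pair 793. The macrophage marker list was at a summed 44780 to 57319 CPM in Tim-4+ TAMs and 21537 to 34477 CPM in Tim-4- TAMs. Of its 9 genes, 6 were higher in Tim-4+ TAMs, *Mrc1* was lower, and 2 passed the test in neither direction. Markers of other cell types also differed between the subsets. All 9 tumor and mesothelial markers were lower in Tim-4+ TAMs, with a summed 88.0 to 353 CPM against 369 to 1793 CPM. The granulocyte list summed to 253 to 370 CPM in Tim-4+ TAMs and 87.2 to 191 CPM in Tim-4- TAMs, of which *Csf3r* was the member that passed the test, while *Ly6g*, *Elane*, *Camp*, *Ltf*, *Siglecf* and *Epx* were under 1 CPM in every library. The mast cell list summed to 3.97 to 16.1 CPM and 20.1 to 68.2 CPM, with *Mcpt4* and *Kit* lower in Tim-4+ TAMs and *Fcer1a* under 1 CPM in every library. The fibroblast list summed to 19.5 to 90.3 CPM and 49.9 to 173 CPM. Of its genes, *Dcn* was lower in Tim-4+ TAMs and *Lum* was under 1 CPM in every library. Cell cycle markers summed to 393 to 627 CPM and 615 to 786 CPM, with 5 of 10 lower in Tim-4+ TAMs. In sorted bulk populations, fewer cells of a type and less RNA per cell cannot be told apart.

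*Arg1* and *Slc7a2* were the 2 of 10 genes that were higher in Tim-4+ TAMs, against 8.97% of the 16861 tested genes called higher in the same fit (edgeR's quasi-likelihood test with the pair as a block, Benjamini-Hochberg adjusted p under 0.05). Both also exceeded 2-fold, against 3.8% of all tested genes. The study had already reported *Arg1* as higher in Tim-4+ TAMs by RNA-Seq, so its place among the 10 was not independent of the data. Of the 10 genes, 0 were called lower, against 8.43% of all tested genes. At an unadjusted p under 0.05, *Nos2* and *Sat1* joined the genes higher in Tim-4+ TAMs, and *Asl*, *Slc7a1* and *Ass1* were lower. These unadjusted counts, 4 and 3 of 10, stood beside 16.8% and 16.9% of all tested genes. DESeq2 with the same block called *Nos2* and *Sat1* higher as well and 0 of the 10 lower, where it called 13% of all tested genes higher and 13.8% lower. Scaled by total counts alone, 789 genes were called higher and 4906 lower in place of 1512 and 1421, *Arg1* and *Slc7a2* were called higher, and *Asl*, *Slc7a1* and *Ass1* were called lower. The median log2 fold change was 0.06 over the 10 genes and 0.00 over all tested genes.

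**Figure D1:**
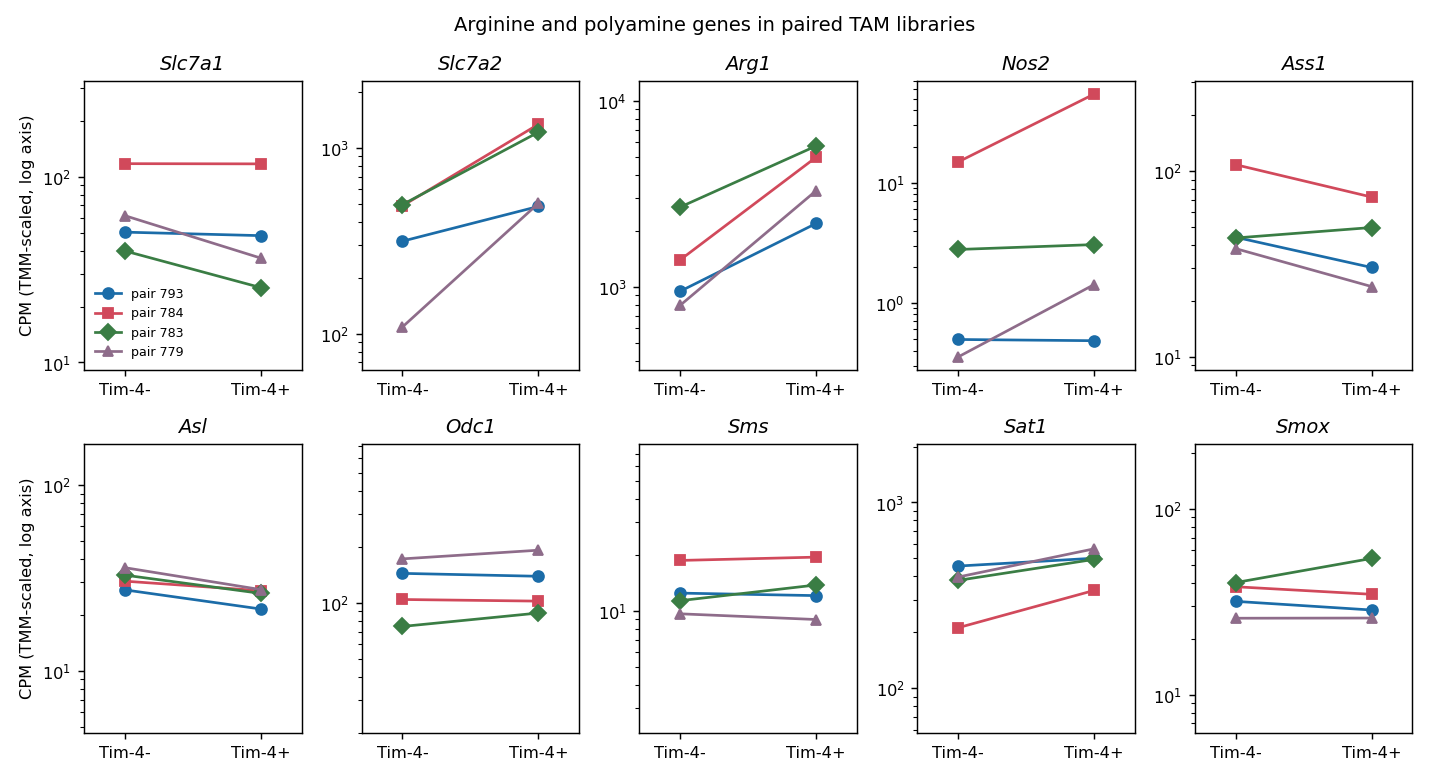
Expression of the 10 genes in each library, as TMM-scaled CPM on a log axis, with 1 line for each pair joining its Tim-4- and its Tim-4+ library (n = 4 pairs). All panels but that of Nos2 span the same number of log units. All 4 lines rise for Arg1, Slc7a2 and Sat1, and for Nos2 pair 784 lies above the other pairs in both subsets.

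For 0 of the 10 genes did all 4 libraries of one subset lie beyond all 4 of the other, which held for 12.8% of all tested genes. Several genes kept their direction in every pair. *Arg1*, *Slc7a2* and *Sat1* had more in the Tim-4+ library of all 4 pairs (22.4% of all tested genes), and *Asl* and *Slc7a1* had less in all 4 (20.2%).

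Of the arginine transporters, *Slc7a2* was higher in Tim-4+ TAMs and *Slc7a1* did not pass the test. *Slc7a2* encodes CAT-2, the cationic amino acid transporter induced in activated macrophages, and lies on chromosome 8 (ENSMUSG00000031596.15, 40862396 to 40922308 in GRCm38, plus strand). Its levels were 484, 1339, 1214 and 503 CPM in Tim-4+ TAMs and 314, 487, 495 and 109 CPM in Tim-4- TAMs. Pairs 784 and 783 were highest in both subsets, and the subsets overlapped narrowly, since the Tim-4- libraries of these pairs stood level with the lowest Tim-4+ libraries. On the log2 scale the fold change was 1.40 (SE 0.25, 95% interval 0.82 to 1.97, edgeR adjusted p = 0.0136), a 2.63-fold difference. The ratio was smallest in pair 793 at 0.62 on the log2 scale, the pair whose Tim-4- library held the most *Timd4*, and largest in pair 779 at 2.21. A long noncoding gene on the opposite strand, *Gm26584*, shares 635 exonic bases with *Slc7a2*, 6.95% of its exon length, and held 5 to 79 counts per library against 7074 to 66913 for *Slc7a2*.

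*Slc7a1* encodes CAT-1, the transporter found in most cell types (ENSMUSG00000041313.14, chromosome 5, 148327410 to 148399904, minus strand). Its levels were 48.2, 117, 25.3 and 36.5 CPM in Tim-4+ TAMs and 50.3, 118, 39.9 and 61.7 CPM in Tim-4- TAMs. The lower level in Tim-4+ TAMs came from pairs 783 and 779, with log2 ratios of -0.66 and -0.76, whereas pairs 793 and 784 were close to level at -0.06 and 0.00. The fitted log2 fold change was -0.37 (SE 0.15, 95% interval -0.73 to -0.01) and did not pass the adjustment (edgeR adjusted p = 0.136). Per base of exon, *Slc7a2* exceeded *Slc7a1* in all 8 libraries, by 12.7 to 60.6 times in Tim-4+ TAMs and 2.22 to 15.7 times in Tim-4- TAMs. That ratio was higher in the Tim-4+ library of every pair, by 1.61, 2.75, 3.87 and 7.83 times.

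*Arg1* encodes arginase-1, which hydrolyzes arginine to ornithine and urea (ENSMUSG00000019987.9, chromosome 10, 24915221 to 24927484, minus strand). It had 2192, 4981, 5725 and 3290 CPM in Tim-4+ TAMs and 946, 1395, 2684 and 795 CPM in Tim-4- TAMs. Pair 783 was highest in both subsets, and its Tim-4- library exceeded the Tim-4+ library of pair 793, so the subsets overlapped across pairs while each pair kept the direction. The log2 fold change was 1.55 (SE 0.21, 95% interval 1.05 to 2.04, edgeR adjusted p = 0.00778), or 2.92-fold. Within pairs, the log2 ratios were 1.21, 1.84, 1.09 and 2.05, smallest in pair 783. Arginase-2, the mitochondrial isozyme encoded by *Arg2*, was barely expressed, with 0.260 to 1.44 CPM in Tim-4+ TAMs and 0.331 to 0.675 CPM in Tim-4- TAMs. A log2 fold change of 0.41 (SE 0.54, edgeR adjusted p = 0.640) fell within the spread between pairs. The summed level of the markers of granulocytes, which can carry arginase-1, was also higher in Tim-4+ TAMs. Of these markers *Csf3r* alone passed the test, and *S100a9* and *Mpo* had too few counts for it. *Ly6g*, *Elane*, *Camp* and *Ltf* were under 1 CPM in all 8 libraries. The part of such cells in *Arg1* was not tested.

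**Figure D2:**
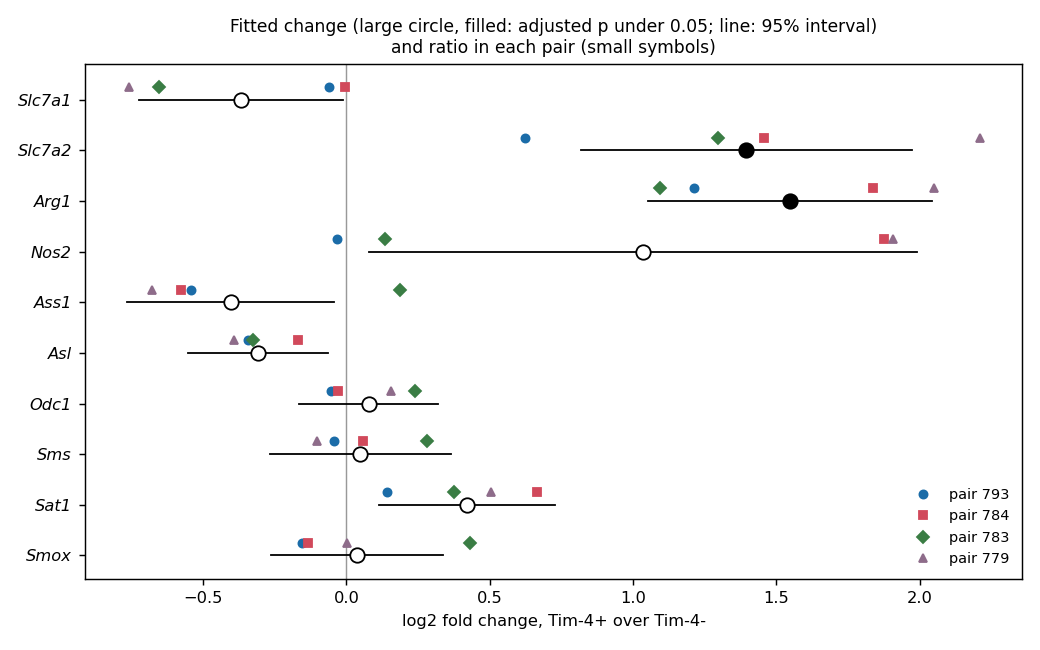
Fitted log2 fold change of each gene between Tim-4+ and Tim-4- TAMs (large circles, filled where the adjusted p is under 0.05, with 95% intervals as lines) and the log2 ratio within each of the 4 pairs (small symbols above). Arg1 and Slc7a2 are filled at 1.55 and 1.40, the interval of Nos2 runs from 0.08 to 1.99, and Odc1, Sms and Smox lie near 0.

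*Nos2*, which encodes inducible nitric oxide synthase, differed between pairs far more than between subsets (ENSMUSG00000020826.8, chromosome 11, 78920787 to 78960254, plus strand). It had 0.483, 54.6, 3.05 and 1.42 CPM in Tim-4+ TAMs and 0.495, 14.9, 2.78 and 0.353 CPM in Tim-4- TAMs. Pair 784 held most of the transcript in both subsets, 113 times the lowest library among Tim-4+ TAMs and 42.1 times among Tim-4- TAMs. The counts behind the low libraries were small, 23 in the Tim-4+ library of pair 793 and 23 in the Tim-4- library of pair 779, and in the latter the lanes gave 4 and 19. Pairs 784 and 779 had log2 ratios of 1.88 and 1.91 in favor of Tim-4+ TAMs, and pairs 793 and 783 were near level at -0.03 and 0.13. The log2 fold change was 1.03 (SE 0.40, 95% interval 0.08 to 1.99), with an edgeR adjusted p of 0.123. The call changed with the setting, as the adjusted p was 0.0301 by DESeq2, 0.0449 from lane 2 alone and 0.0120 without pair 783. *Arg1* exceeded *Nos2* per base of exon in every library, by 181 to 8980 times in Tim-4+ TAMs and 186 to 4456 times in Tim-4- TAMs, with the smallest ratio of each subset in pair 784.

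The genes that rebuild arginine from citrulline were modestly lower in Tim-4+ TAMs without passing the adjustment. *Asl*, encoding argininosuccinate lyase (ENSMUSG00000025533.15, chromosome 5, 130011258 to 130029247, minus strand), had 21.5, 27.0, 26.1 and 27.4 CPM in Tim-4+ TAMs and 27.3, 30.4, 32.8 and 35.96 CPM in Tim-4- TAMs. It was the steadiest of the 10 genes, with a 1.27-fold range in Tim-4+ TAMs, and the subsets met only where the highest Tim-4+ library reached the lowest Tim-4- library. Its log2 fold change was -0.31 (SE 0.11, 95% interval -0.55 to -0.06, edgeR adjusted p = 0.0818).

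*Ass1*, encoding argininosuccinate synthase (ENSMUSG00000076441.9, chromosome 2, 31470207 to 31520672, plus strand), had 30.3, 72.4, 49.7 and 23.9 CPM in Tim-4+ TAMs and 44.04, 108, 43.6 and 38.2 CPM in Tim-4- TAMs. Pair 784 was highest in both subsets, and pair 783 alone ran the other way, with a log2 ratio of 0.19 against -0.54, -0.58 and -0.68. The log2 fold change was -0.40 (SE 0.16, 95% interval -0.76 to -0.04, edgeR adjusted p = 0.112), and without pair 783 it was -0.60 with an adjusted p of 0.00993. These counts are less certain than those of the other genes, because the processed pseudogene *Gm5424* matches the *Ass1* transcript at 99.5% over 1240 bases and held 27.3% as many counts. *Gm5424* had a log2 fold change of 0.00 (SE 0.18), and adding its counts to *Ass1* gave -0.31 (SE 0.15, edgeR adjusted p = 0.198). Tumor and mesothelial markers were higher in Tim-4- TAMs by the summed levels given above, the same direction between subsets as *Asl*, *Ass1* and *Slc7a1*. Their order over the pairs was not shared by all 3 genes. Among Tim-4- libraries the markers were highest in pair 779, where *Asl* was highest and *Ass1* lowest, and *Slc7a1* was highest in pair 784. The part of such cells in these differences was not tested.

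The polyamine synthesis genes *Odc1* and *Sms* had log2 fold changes near 0, which turned to -0.28 and -0.31 when libraries were scaled by total counts. *Odc1*, encoding ornithine decarboxylase, the first committed step (ENSMUSG00000011179.8, chromosome 12, 17544794 to 17551505, plus strand), had 139, 102, 88.3 and 192 CPM in Tim-4+ TAMs and 144, 104, 74.8 and 173 CPM in Tim-4- TAMs. The pairs kept the same order in both subsets, 779 highest and 783 lowest. The log2 fold change of 0.08 (SE 0.10, edgeR adjusted p = 0.646) had a 95% interval of -0.16 to 0.32. In all, 14 annotated copies match the *Odc1* transcript at 90% identity or more over at least 200 bases, and they held 5.62% as many counts as *Odc1* between them.

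*Sms*, encoding spermine synthase (ENSMUSG00000071708.11, chromosome X, 157443855 to 157492287, minus strand), had 12.1, 19.4, 13.8 and 8.97 CPM in Tim-4+ TAMs and 12.4, 18.7, 11.3 and 9.63 CPM in Tim-4- TAMs. Pair 784 was highest and pair 779 lowest in both subsets. Spermine synthase RNA had a log2 fold change of 0.05 (SE 0.14, 95% interval -0.27 to 0.36, edgeR adjusted p = 0.838). The pseudogene *Sms-ps* matches *Sms* without a mismatch over 1101 bases and held 17.0% as many counts, and the value with its counts added was 0.06 (SE 0.14).

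Levels of *Ass1* and *Sms* followed each other, with a Pearson r of 0.90 over the 8 libraries, which share pairs and are not independent. RefSeq promoter windows, from 250 bases before to 50 after each start site in GRCm38.p6, matched 6 of the 10 genes, and the palindromic E-box CACGTG was searched in them because it is the textbook recognition sequence of MYC and related factors. It was present in 2 of 8 member windows, 1 of *Ass1* and 1 of *Sms*, and in 7.17% of 32544 windows of all genes (CACGTG reads the same on both strands). The stretches are shown with the hexamer in capitals, read on the gene's own strand, because these were the windows that held it. The *Ass1* stretch is chr2:31470222-31470251 on the plus strand, 36 bases before the RefSeq start site. That site lies downstream of the GENCODE gene start given above, so the stretch is within the gene as GENCODE bounds it. The *Sms* stretch is chrX:157492466-157492495 on the minus strand, 196 bases before the RefSeq start site of *Sms*.
Ass1: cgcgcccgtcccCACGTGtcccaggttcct
Sms: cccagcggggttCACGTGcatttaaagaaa
*Myc* itself had 85.3, 119, 78.1 and 147 CPM in Tim-4+ TAMs and 93.5, 93.2, 48.4 and 152 CPM in Tim-4- TAMs. It was highest in pair 779 in both subsets, where *Ass1* and *Sms* were lowest. A part of MYC in their levels was not tested. The log2 fold change of *Myc* was 0.21 (SE 0.15, edgeR adjusted p = 0.365). *Arg1*, *Nos2*, *Slc7a2* and *Asl* were not matched to a window.

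Of the breakdown genes, *Sat1* had more transcript in the Tim-4+ library of each pair but missed the threshold. *Sat1* encodes spermidine/spermine acetyltransferase, the rate-limiting enzyme of polyamine catabolism (ENSMUSG00000025283.15, chromosome X, 155213132 to 155216449, minus strand). It had 501, 336, 494 and 563 CPM in Tim-4+ TAMs and 455, 212, 381 and 397 CPM in Tim-4- TAMs. Pair 784, the highest for *Nos2*, *Ass1* and *Slc7a1*, was the lowest for *Sat1* in both subsets. Its fold change was 0.42 on the log2 scale (SE 0.13, 95% interval 0.11 to 0.73, edgeR adjusted p = 0.0643), and DESeq2 gave an adjusted p of 0.0141.

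*Smox*, encoding spermine oxidase, which returns spermine to spermidine (ENSMUSG00000027333.18, chromosome 2, 131491496 to 131525922, plus strand), had 28.5, 34.7, 54.1 and 25.8 CPM in Tim-4+ TAMs and 31.8, 38.1, 40.1 and 25.8 CPM in Tim-4- TAMs. Pair 783 was highest in both subsets and had the largest ratio between subsets, with a log2 ratio of 0.43. The fitted log2 fold change was 0.04 (SE 0.13, 95% interval -0.26 to 0.34, edgeR adjusted p = 0.876).

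Levels were compared between genes as CPM per kilobase of merged exons (RPKM). In Tim-4+ TAMs the order of mean RPKM was *Arg1* at 1816, *Sat1* at 171, *Slc7a2* at 96.9, *Odc1* at 38.3, *Ass1* at 18.3, *Smox* at 9.18, *Asl* at 5.28, *Slc7a1* at 4.93, *Nos2* at 3.38 and *Sms* at 2.26. *Arg1* stood apart from *Sat1*, and *Smox* from *Asl*, with ranges over the 4 libraries that did not overlap, while every other gene overlapped its neighbor. In Tim-4- TAMs the first 8 genes kept this order, from *Arg1* at 653 and *Sat1* at 130 to *Slc7a1* at 5.84 mean RPKM, and *Sms* at 2.17 came before *Nos2* at 1.05. There *Arg1* and *Sat1*, *Sat1* and *Slc7a2*, *Ass1* and *Smox*, and *Slc7a1* and *Sms* were the neighbors whose ranges did not meet. The ratio of *Arg1* to *Odc1*, the genes of consecutive steps, was 24.1 to 99.1 per length across Tim-4+ libraries and 7.03 to 54.9 across Tim-4- libraries, higher in the Tim-4+ library of each of the 4 pairs by 1.81 to 3.72 times. The ratio of *Sat1* to *Odc1* was 3.59 to 6.87 and 2.49 to 6.25, and it too was higher in 4 of 4 pairs.

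The pair a library came from accounted for more of the spread than the Tim-4 subset in 8 of the 10 genes, the exceptions being *Arg1* and *Asl*. There were more pairs than subsets, so a larger share between pairs arises even where levels vary at random. Of the sum of squares of log2 CPM over the 8 libraries, the median share between pairs was 85.3% for the 10 genes and 52.4% for all tested genes, and the median share between subsets was 8.11% and 19.0%. Among all tested genes, 69.7% had more spread between pairs than between subsets. *Odc1* had 97.4% of its spread between pairs, *Sms* 95.9% and *Nos2* 92.0%, and *Arg1* had 61.5% between subsets. Pair 784 was highest in both subsets for *Nos2*, *Slc7a1*, *Ass1* and *Sms*, pair 779 for *Asl* and *Odc1*, and pair 783 for *Arg1* and *Smox*. How often the same pair was highest in both subsets over all tested genes was not counted. The pair stands for a mouse or a preparation day, which the labels do not tell apart.

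**Figure D3:**
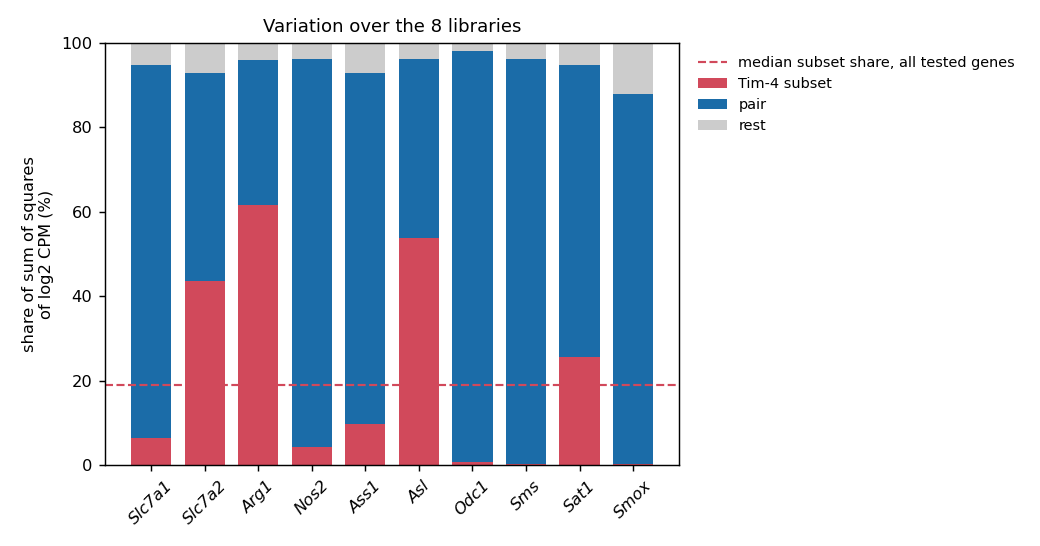
Share of the sum of squares of log2 CPM over the 8 libraries that lies between Tim-4 subsets, between pairs and in the rest, for each gene, in percent. The share between pairs tends to be the larger because there are more pairs than subsets. The dashed line is the median subset share of all 16861 tested genes, 19.0%, which Arg1, Slc7a2, Asl and Sat1 exceed.

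Across the 8 libraries, *Arg1* moved most closely with *Slc7a2* among the 10 genes (Pearson r of 0.90 on log2 CPM, a description of libraries that share pairs). *Ass1* and *Sat1* ran in opposite directions (r of -0.90), as did *Odc1* and *Smox* (r of -0.87). Over the 8764 genes that averaged 10 CPM or more, those whose levels most resembled *Arg1* were *Hdhd2* (r of 0.98) and *Egln3* (r of 0.98), those most like *Slc7a2* were *R3hdm1* and *Msn* (r of 0.97 each), and those most like *Odc1* were *Bcl10* and *Herpud1* (r of 0.99 each). *Cct3* was most like *Slc7a1* (r of 0.99), *Snx10* most like *Nos2* (r of 0.97), and *Gbp2b* most like *Sat1* (r of 0.99). For *Sms* the second most similar gene was *Gm5424*, the *Ass1* pseudogene (r of 0.98).

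The 10 genes were set beside 82 further genes of arginine transport and use, the nitric oxide cofactor, ornithine and proline, polyamines and their control, and regulators of *Arg1* and *Nos2*. Of these, 71 had enough counts to be tested, 5 were higher in Tim-4+ TAMs and 8 were lower, with a median log2 fold change of -0.01. The 51 tested genes that were not regulators held 1 of those higher and 8 of those lower, against 8.97% and 8.43% of all tested genes. Without pair 784, and likewise without pair 779, *Epas1* was the 1 related gene still called. Genes of the urea cycle in liver, *Otc* and *Cps1*, had 0 counts in every library, as did *Prodh* of proline breakdown, and a floor of 3 counts corresponds to 0.0382 to 0.0630 CPM.

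Among the other transport and sensing genes, 2 were lower in Tim-4+ TAMs. Of these 14 transport and sensing genes, *Slc7a6*, a subunit of an exchanger for cationic amino acids, was lower in Tim-4+ TAMs at 8.06 to 21.4 CPM against 14.0 to 25.95 CPM (log2 fold change -0.68, SE 0.17, edgeR adjusted p = 0.0318), and *Slc7a3*, encoding CAT-3, was lower at under 1.40 CPM in every library (-1.71, SE 0.46, edgeR adjusted p = 0.0417). The call on *Slc7a3* was lost in each of the 4 fits that left out 1 pair, with edgeR adjusted p of 0.0940 to 0.155, and in either lane alone, at 0.125 and 0.0761. The exchanger subunit *Slc7a7* was higher in 4 of 4 pairs at 47.0 to 129 CPM against 32.7 to 69.6 CPM, with an edgeR adjusted p of 0.0522. Among 14 genes, 0 were called higher by edgeR, 2 at an unadjusted p under 0.05 and 1 by DESeq2, *Slc7a7*. The arginine sensor *Castor1* and the lysosomal sensor *Slc38a9* had log2 fold changes of 0.09 and 0.06. *Castor2* was lower in 4 of 4 pairs, at 12.6 to 37.5 CPM against 18.8 to 40.75 CPM. Its log2 fold change was -0.42 (SE 0.13, edgeR adjusted p = 0.0558), and DESeq2 called it lower.

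Among other genes of arginine use, *Ddah1*, whose product degrades methylated arginines that inhibit nitric oxide synthases, was lower in Tim-4+ TAMs. It had 1.28, 1.60, 1.46 and 2.68 CPM in Tim-4+ TAMs and 4.80, 13.9, 2.52 and 19.8 CPM in Tim-4- TAMs (log2 fold change -2.20, SE 0.41, edgeR adjusted p = 0.0169). Pairs 784 and 779 had the highest *Ddah1* among Tim-4- TAMs, and their Tim-4- libraries also held the most tumor and mesothelial marker RNA, a summed 1087 and 1793 CPM against 369 and 859 CPM. Mast cell markers were also highest in these 2 Tim-4- libraries, with a summed 27.0, 68.2, 20.1 and 59.7 CPM over the pairs. So were fibroblast markers, with a summed 49.9, 162.5, 80.2 and 172.7 CPM. The part of those cells in the difference was not tested. Of 4 tested genes for tetrahydrobiopterin, the cofactor of nitric oxide synthase, 0 passed in edgeR's test. *Gch1*, its first enzyme, and *Pts* were higher at an unadjusted p under 0.05 and by DESeq2. *Gch1* had 31.6 to 75.5 CPM in Tim-4+ TAMs and 27.2 to 54.1 CPM in Tim-4- TAMs and was higher in 4 of 4 pairs (edgeR adjusted p = 0.0515).

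The route from ornithine to proline had 1 gene higher and 1 lower among 9 tested. *P4ha2*, a subunit of the collagen prolyl hydroxylase, had 49.2, 49.3, 45.3 and 36.9 CPM in Tim-4+ TAMs and 29.7, 22.8, 40.4 and 17.3 CPM in Tim-4- TAMs (log2 fold change 0.78, SE 0.17, edgeR adjusted p = 0.0234). *Pycr1*, which makes proline in mitochondria, had 0.189 to 0.877 CPM against 0.345 to 3.19 CPM (log2 fold change -1.44, SE 0.36, edgeR adjusted p = 0.0321), a call that was lost in all 4 fits without 1 pair (0.0598 to 0.118), without the block (0.231) and in lane 1 alone (0.0774). *Oat*, ornithine aminotransferase, which diverts ornithine toward proline, had a log2 fold change of 0.01 (SE 0.11).

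Beyond *Odc1* and *Sms*, 8 genes of polyamine synthesis and its control were tested, and *Azin1* and *Ahcy* were lower in Tim-4+ TAMs. *Azin1*, which encodes an antizyme inhibitor that shields ornithine decarboxylase from degradation, had 106, 79.4, 62.3 and 73.5 CPM in Tim-4+ TAMs and 116, 141, 81.9 and 120 CPM in Tim-4- TAMs. The fitted difference was -0.51 on the log2 scale (SE 0.14, edgeR adjusted p = 0.0392). *Ahcy*, which clears S-adenosylhomocysteine, fell by 0.90 on the log2 scale (SE 0.19, edgeR adjusted p = 0.0210). The antizymes *Oaz1* and *Oaz2* had log2 fold changes of -0.28 and -0.10 without passing, and *Srm*, spermidine synthase, had 0.24 (SE 0.17, edgeR adjusted p = 0.366). By edgeR 0 of the 8 were higher, as at an unadjusted p under 0.05 and by DESeq2. *Arg1*, *Odc1* and *Srm* were examined on these same samples by the study, so their selection was not independent of the data.

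Among 9 tested genes of polyamine breakdown, transport and hypusination, *Slc18b1* and *Eif5a2* were lower in Tim-4+ TAMs. *Slc18b1*, a vesicular polyamine transporter, had 1.35, 3.44, 3.89 and 3.06 CPM against 7.57, 20.9, 4.95 and 19.1 CPM in Tim-4- TAMs (log2 fold change -2.05, SE 0.43, edgeR adjusted p = 0.0247). As with *Ddah1*, its highest levels were in the Tim-4- libraries of pairs 784 and 779. The mast cell, the fibroblast and the tumor and mesothelial lists were also highest there among Tim-4- libraries. The part of such cells in *Slc18b1* was not tested. *Eif5a2*, a minor isoform of the translation factor that receives hypusine from spermidine, had 3.06 to 5.32 CPM against 5.08 to 7.92 CPM (log2 fold change -0.76, SE 0.19, edgeR adjusted p = 0.0345). The main isoform *Eif5a* had 402 to 811 CPM against 372 to 524 CPM, with a log2 fold change of 0.31 (SE 0.14, edgeR adjusted p = 0.170). In this list 0 genes were higher by edgeR, at an unadjusted p under 0.05 or by DESeq2.

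**Figure D4:**
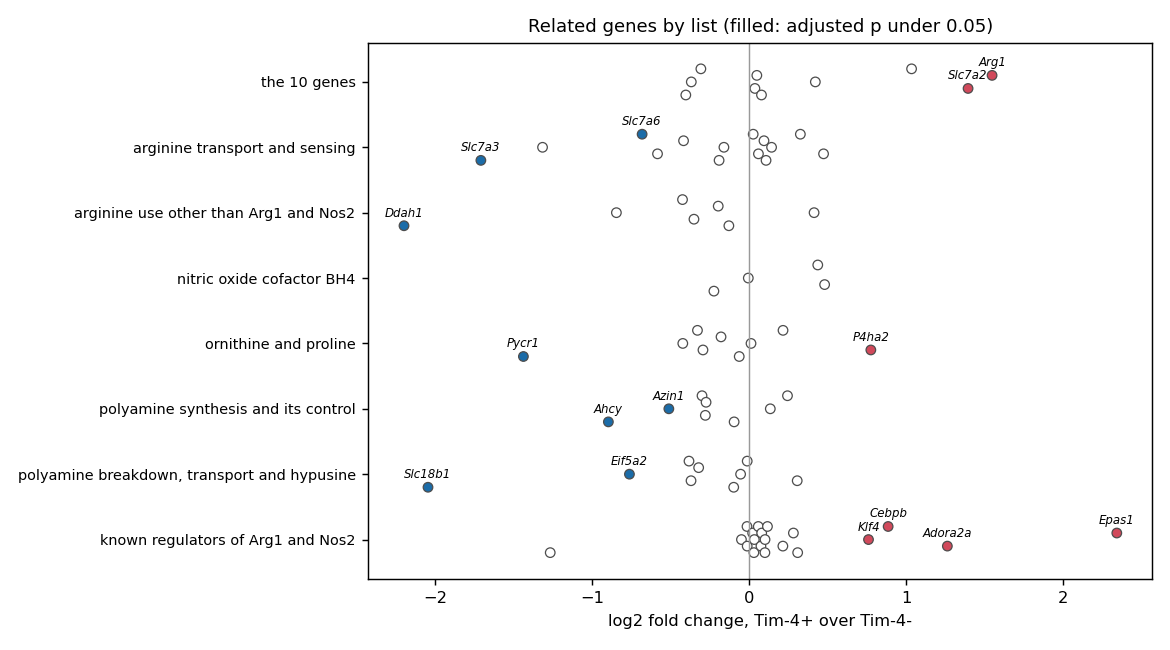
Log2 fold change between Tim-4+ and Tim-4- TAMs of the 10 genes and of the 71 tested genes of 7 related lists, with 1 circle for each gene (filled and named where the adjusted p is under 0.05). Of the 51 tested genes outside the list of regulators, 8 are filled on the lower side and 1, P4ha2, on the higher side. Of the 20 regulators, 4 are filled on the higher side, with Epas1 farthest at 2.34. Among all tested genes, 8.97% were called higher and 8.43% lower.

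Of 20 regulators known to act on *Arg1* or *Nos2*, 4 were higher in Tim-4+ TAMs, against 8.97% of all tested genes. By edgeR 0 were lower, against 8.43% of all tested genes. The list was chosen with earlier results of these data known. *Pparg* was lower at an unadjusted p under 0.05 and by DESeq2 (log2 fold change -1.27, SE 0.40, edgeR adjusted p = 0.0631). *Epas1*, encoding HIF-2α, a hypoxia-inducible factor, had 139, 154, 185 and 146 CPM in Tim-4+ TAMs and 36.4, 21.6, 41.9 and 26.3 CPM in Tim-4- TAMs, and the subsets did not overlap. Its log2 fold change was 2.34 (SE 0.16, edgeR adjusted p = 0.00117), or 5.07-fold, whereas *Hif1a* had 0.02 (SE 0.12). *Cebpb*, encoding a transcription factor that drives *Arg1* in macrophages, had 187, 154, 80.8 and 226 CPM against 150, 55.2, 48.7 and 111 CPM (log2 fold change 0.89, SE 0.18, edgeR adjusted p = 0.0205). *Klf4*, which cooperates with STAT6 in alternative activation, rose by 0.76 (SE 0.16, edgeR adjusted p = 0.0196), and *Adora2a*, an adenosine receptor gene, by 1.26 (SE 0.29, edgeR adjusted p = 0.0282) at 1.65 to 24.2 CPM against 1.40 to 8.33 CPM.

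The interleukin-4 receptor and interferon-γ receptor genes had log2 fold changes near 0. *Il4ra* had a log2 fold change of 0.06 (SE 0.16), *Stat6* of 0.31 (SE 0.12, edgeR adjusted p = 0.126), *Ifngr1* of -0.01 and *Ifngr2* of 0.08. *Irf1*, an interferon-γ target that acts on *Nos2*, spanned 64.2 to 482 CPM across Tim-4+ libraries and 73.6 to 307 CPM across Tim-4- libraries, with a log2 fold change of 0.03 (SE 0.17).

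The calls on *Arg1* and *Slc7a2* needed the pairing and pair 784. Without the block the edgeR adjusted p was 0.0950 for *Arg1* and 0.171 for *Slc7a2*, with log2 fold changes of 1.48 and 1.33. Without pair 784, the edgeR adjusted p was 0.0614 and 0.0876 at log2 fold changes of 1.45 and 1.37, and the genes called higher over all tested genes fell from 1512 to 91.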

How the data were processed

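RNA was measured by paired-end, ribosomal RNA-depleted, stranded RNA-Seq on an Illumina HiSeq. The authors deposited whole-number read counts for 55604 GENCODE genes in 16 lane tables. Per the submitters' processing notes, reads were checked with FastQC 0.11.3, aligned with TopHat2 2.0.13 to GRCm38 (mm10) and analyzed with Cuffdiff 2.2.1, although the study's methods name a human build. The read counter and its strand setting are not given in the sources used here. Reads aligned to several places, set aside by the counter, made up 20.3% to 24.5% of all lines in the lanes that list them, except 9.11% in lane 2 of the Tim-4- library of pair 779.

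The members and gene lists were chosen with earlier results of these data known. Identifiers were named with GENCODE M21 (98.4% matched). In 1 lane, listed by symbol, rows were joined by order, and 96.9% of comparable symbols and all 10 members matched. The 2 lanes of a library were summed. The 16861 genes that reached 10 counts in 4 or more of the 8 libraries were tested with edgeR 4.0.16 (TMM factors, robust quasi-likelihood test, pair as a block, Benjamini-Hochberg adjustment) in R 4.3.3. The SE is the absolute log2 fold change divided by the square root of F. Ratios within pairs and correlations used log2 CPM with a prior count of 2. A floor of 3 counts equals 0.0382 to 0.0630 CPM. Lengths are merged exons of GENCODE M21, and copies of members were sought with BLASTN among its transcripts. The test was checked on simulated counts.

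The pairing was checked as the correlation of deviations from the subset means, which was 0.47, 0.50, 0.41 and 0.28 in pairs 793, 784, 783 and 779, and the labels and methods describe paired subsets. No label says that mice were pooled. The edgeR p-values rest on how far the difference between subsets varied over these 4 pairs, with the level of each pair taken up by the block. They also rest on other genes, because the fit draws each gene's variance toward a trend over all tested genes. Alternatives were no block, other scaling, DESeq2 1.42.0, other filters, single lanes and leaving out each pair, and, chosen after seeing the data, adding counts of near-identical copies. Named genes were all 10 members, the related genes that passed the test, and genes of the fixed lists given as a contrast. Some genes of the related lists are not reported here.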

Additional observations from a re-analysis of the deposited data

Results flagged for a closer look

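In groups of 4 libraries, 1 library stood far from the other three, by the gap to its neighbor over the whole range, in 6 of 72 groups examined, where chance gives about 1 in 20. *Nos2* reached 54.6 CPM among Tim-4+ TAMs in pair 784, above 3.05 CPM in the next library, and 14.9 CPM in the Tim-4- library of the same pair, the next being 2.78 CPM. *Ass1* reached 108 CPM in pair 784 among Tim-4- TAMs, with 44.04 CPM next, so 3 of the 6 came from that pair. The resident peritoneal macrophage markers summed to 3567 CPM among Tim-4- TAMs in pair 793, above 1559 CPM in the next library, and this pair also had the smallest ratio of *Slc7a2* between subsets. For *Arg1* the smallest ratio was in pair 783, at 1.09 on the log2 scale against 1.21 in pair 793. Erythroid markers summed to 255 CPM in the Tim-4+ and 65.5 CPM in the Tim-4- library of pair 783, where the next highest libraries had 3.64 and 0.645 CPM. Pair 783 was the only pair with more *Ass1* in Tim-4+ than in Tim-4- TAMs. The part of residual resident cells or red cells in these values was not tested.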

How the results depend on the processing

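With no replicate block the pairing is ignored, and 147 genes were called higher and 85 lower in Tim-4+ TAMs, with 0 of the 10 members higher and 1 and 0 of the 82 related genes higher and lower. DESeq2 with the block called 2194 of all genes higher and 2328 lower, 4 members higher and 8 related genes higher. Scaling by total counts, which moved the median of all genes to -0.36, called 789 higher and 4906 lower, 3 members lower (*Asl*, *Slc7a1* and *Ass1*), and 3 related genes higher and 27 lower. Total-count scaling also turned the direction of *Odc1* (-0.28), *Sms* (-0.31), *Smox* (-0.32) and *Srm* (-0.11). Relative to the median of all genes under that scaling, *Odc1*, *Sms* and *Smox* were at 0.08, 0.05 and 0.04. Subtracting that median takes the change of scaling out again, so these values repeat the TMM-scaled fit and are no separate check. Lane 1 alone called 5 related genes lower, against 8 from both lanes. Leaving out 1 pair gave 91 to 1603 genes higher and 67 to 1983 lower, 0 to 3 members higher, 0 to 1 lower, and 1 to 7 related genes higher and 0 to 7 lower. Over all genes the lowest counts came without pair 784, with 784 and 506 called without pair 793 and 457 and 340 without pair 779. Leaving out 1 pair also gave -0.029 to 0.098 for *Sms* and -0.096 to 0.105 for *Smox*, both negative without pair 783, and -0.062 to 0.754 for *Arg2*, negative without pair 779. Over 14 alternatives, the adjusted p of *Arg1* ranged from 2.19e-12 to 0.0950 and its log2 fold change from 1.19 to 1.70, and *Slc7a2* ranged from 5.58e-07 to 0.171 and from 1.04 to 1.66. *Epas1* kept an adjusted p of at most 0.0174 in all 14. The cause of these shifts was not tested.

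Counts of *Nos2* under 100 in 4 libraries limit its ratios. The intervals on fold changes come from the SE of the quasi-likelihood fit. They cover variation of the difference over the pairs as well as counting error. There were only 4 pairs, and each gene's variance was drawn toward a trend over all tested genes. RPKM depends on annotated exon length. *Ass1* and *Sms* share sequence with pseudogenes. Bead enrichment leaves other cells, and the design cannot tell subset from the antibody used.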
